A study of Mus musculus with 8 samples.

Results

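The genes described here are 10 genes of the accessory structures of the mouse sperm tail and of late spermatid remodelling: Odf1, Odf2, Odf4, Fscb, Ropn1, Ropn1l, Smcp, Cabs1, Oaz3 and Spem1. They were chosen by symbol, and all 10 are among the 17121 genes of the table. RNA-seq was made from mouse testis in 8 libraries. The genotype is given as CTL for 4 of them and as N6amt1-SKO for the other 4 (called SKO-labelled). The series asks how N6AMT1, a methyltransferase that works with TRMT112, acts in the making of sperm. The labels give no strain, age, allele or Cre line and do not spell out SKO. Nothing in them ties each library to its own animal, so the p-values rest on a spread between libraries that could be technical.

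The sperm tail is an axoneme wrapped in accessory structures that are laid down while round spermatids elongate. Outer dense fibres run along the axoneme, a fibrous sheath surrounds them in the principal piece, and a helix of mitochondria surrounds them in the midpiece. The sheath is a scaffold for glycolytic enzymes and for protein kinase A anchoring. Many of the messenger RNAs involved are made only after meiosis, and their level in whole testis follows how many spermatids of the right stage the tissue holds as well as how much RNA each cell makes. In bulk samples fewer cells of a type and less RNA per cell cannot be told apart.

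Values are whole numbers that the authors had scaled per library. Where 4 values of a group are listed, they are in the order of the replicate numbers. The labels do not say that a shared number pairs libraries. Values are given after normalisation by TMM factors (trimmed mean of M values), which place the bulk of genes at the same level in each library. The gaps between low values put 40.6 to 70.1 M reads (M for 10 to the power of 6) behind 6 of the libraries. CTL 1 and CTL 2 leave no gaps, and how often each low value occurs gives a less direct estimate of 258 and 225 M reads. At least 660 reads stood behind each value of the 10 genes, so counting error was small beside the spread between libraries. The libraries fell into a pair of sets that cross the groups: 18S ribosomal RNA took 0.721% to 0.969% of the values in CTL 3, CTL 4 and SKO 4, and 0.173% to 0.273% in the other 5. These 3 libraries, called the higher 18S set, also held more even than odd read numbers (64.5% to 66.7% even among genes with 2 to 41 reads, against 54.1% to 57.6% in SKO 1 to 3). N6amt1 itself did not pass the test, with 475, 433, 629 and 514 in the CTL libraries against 586, 557, 561 and 625 in the SKO-labelled libraries (limma adjusted p = 0.437). The targeted part of the gene is not given, so this value checks no genotype label. The extraction protocol names heart, while the tissue label is testis. The germ cell gene Ddx4 lay between 40923 and 84616. Of the heart genes, Tnni3 lay between 1077 and 4661 and Tnnt2 between 301 and 917. Myh6 and Myl7 lay between 273 and 1079 and between 7.98 and 98.2. Tnni3 and Tnnt2 were higher in every SKO-labelled library than in any CTL library, whereas the groups overlapped for Myh6 and Myl7. The heart genes Myl2, Myl3, Nppa and Actc1 are not among the genes of the table. The source of the heart transcripts was not tested.

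None of the 10 genes passed the adjusted threshold between the groups over all 8 libraries, and the spread within the groups was large. By limma over 17066 genes, 0 of the 10 were called at an adjusted p below 0.05 (adjusted p from 0.0905 to 0.991), where 19.9% of all genes tested were called, 7.93% lower and 11.9% higher. For 0 of the 10 were the groups free of overlap, against 26.1% of all genes. At an unadjusted p below 0.05 stood 1 of the 10, Odf2, against 37% of all genes. The mean was lower in the SKO-labelled libraries for 10 of 10 genes, and for 8347 of the 17066 genes tested. The log2 fold change was below 0 for 9 of the 10 genes, and for 8113 of all genes tested. Its median was -0.29 over the 10, beside 0.04 over all genes tested. The same library, CTL 2, was the highest for 10 of 10 genes. CTL 1 was among the top 3 libraries for 10 genes and SKO 1 for 8, while CTL 4 was the lowest for 7.

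**Figure D1:**
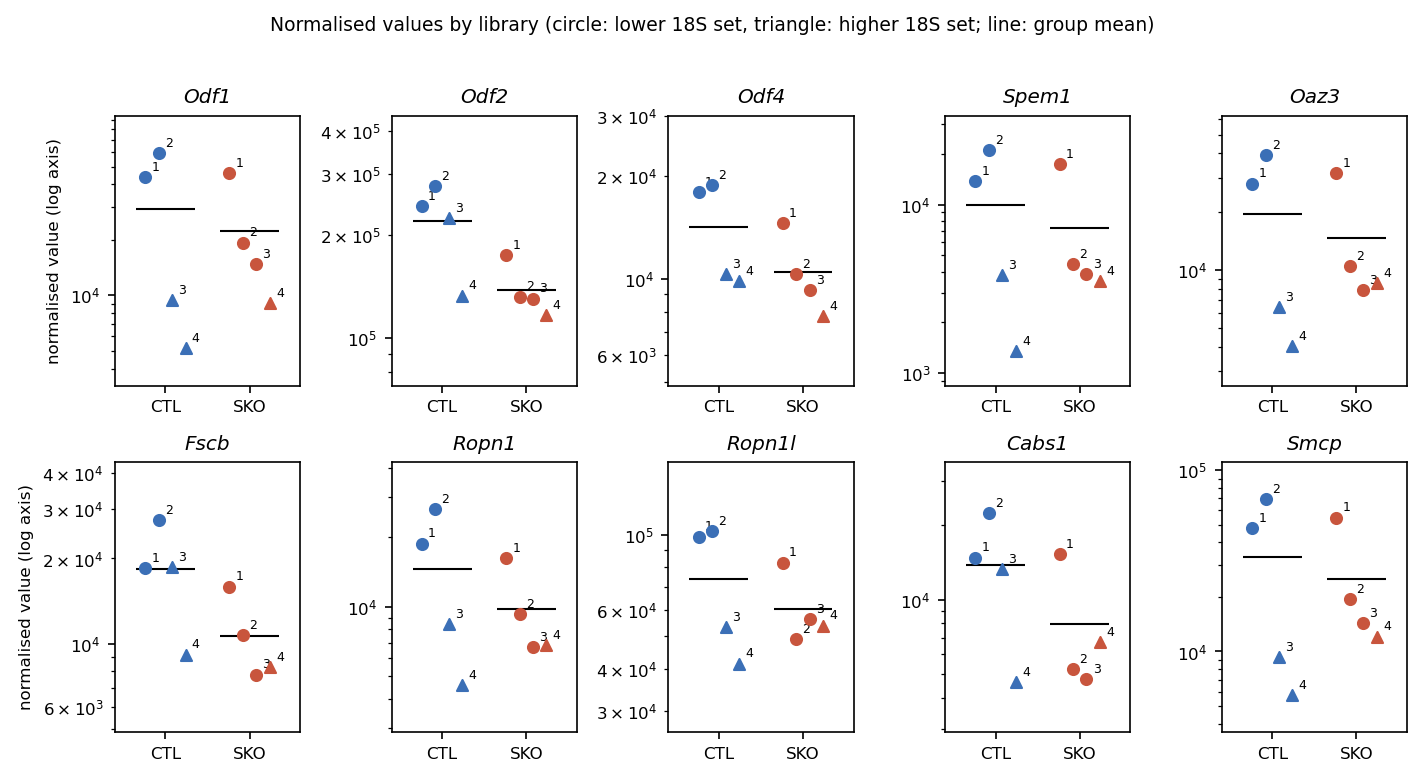
Normalised values (log axes, each with its own range) of the 10 genes in 4 CTL and 4 SKO-labelled libraries, with the replicate number beside each point, circles for the lower and triangles for the higher 18S set, and a line at the group mean. CTL 1, CTL 2 and SKO 1 lie high in most panels, and the groups overlap in all 10.

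The outer dense fibre genes come first. Odf1 encodes a cysteine-rich main component of the fibres. It lies on chromosome 15 from 38219203 to 38226735 (GRCm38, plus strand, 2 exons). Its values were 43749, 59070, 9437 and 5170 in the CTL libraries against 46069, 19363, 14721 and 9089 in the SKO-labelled libraries. SKO 1 sat between the high control libraries, and all 4 SKO-labelled values fell inside the control range. The control libraries thus spanned 11.4-fold and the SKO-labelled libraries 5.07-fold. The means were 29356 ± 26280 and 22310 ± 16387 (SD, n = 4 each), and the log2 fold change was -0.02 with a standard error of 0.78 (95% interval -1.77 to 1.73; limma adjusted p = 0.989). The interval reaches well to either side of 0.

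Odf2 encodes a second fibre protein, which as the isoform cenexin also sits on the appendages of the mother centriole in dividing cells. It lies on chromosome 2 from 29889221 to 29931746, and GENCODE lists 25 transcripts, which a value per gene does not separate. Its values were 241221, 276225, 223627 and 133035 in the CTL libraries against 174080, 132194, 130368 and 116645 in the SKO-labelled libraries. CTL 1 to 3 were above all SKO-labelled libraries, whereas CTL 4 lay inside their range. The means were 218527 ± 61044 and 138321 ± 24828 (SD, n = 4 each), a log2 fold change of -0.63 (standard error 0.24, 95% interval -1.16 to -0.09; limma adjusted p = 0.0905). By the standard deviation of log2 values Odf2 had the narrowest spread of the 10 genes in both groups, 0.46 in CTL and 0.25 in SKO-labelled libraries.

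Odf4, whose product is found in the sperm tail, lies on chromosome 11 from 68921835 to 68927081 (minus strand). It had 17919, 18797, 10312 and 9845 in the CTL libraries against 14546, 10333, 9280 and 7774 in the SKO-labelled libraries. Its highest values were again those of CTL 1, CTL 2 and SKO 1, and SKO 3 and SKO 4 lay below all control libraries. The log2 fold change was -0.41 (standard error 0.27, limma adjusted p = 0.293).

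The fibrous sheath genes follow. Fscb encodes a sheath protein that binds CABYR. It has a single exon on chromosome 12, from 64471330 to 64474690. Its values were 18475, 27309, 18622 and 9146 in the CTL libraries against 15894, 10726, 7777 and 8242 in the SKO-labelled libraries. As for Odf2, CTL 3 stood with CTL 1 and not with CTL 4, and SKO 3 and SKO 4 were below every control library. The means were 18388 ± 7417 and 10660 ± 3722 (SD, n = 4 each), with a log2 fold change of -0.74 and a standard error of 0.34 (95% interval -1.49 to 0.01; limma adjusted p = 0.138).

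Ropn1 and Ropn1l encode ropporin and its relative, which dock on the anchoring protein AKAP3 in the sheath. Ropn1 (chromosome 16, 34649921 to 34678618) had 18808, 26446, 8423 and 4578 in the CTL libraries against 16223, 9326, 6687 and 6809 in the SKO-labelled libraries. Ropn1l (chromosome 15, 31441211 to 31453737) had 98679, 102507, 53320 and 41496 in the CTL libraries against 82625, 49156, 56133 and 53825 in the SKO-labelled libraries. In each of the pair all 4 SKO-labelled values lay inside the control range. The log2 fold changes were -0.37 (standard error 0.52) and -0.22 (standard error 0.31), with limma adjusted p of 0.647 and 0.652. Cabs1, a calcium-binding protein gene of elongate spermatids (chromosome 5, 87979439 to 87981544), had 14765, 22406, 13277 and 4643 in the CTL libraries against 15217, 5232, 4770 and 6717 in the SKO-labelled libraries. Its log2 fold change was the lowest of the 10, at -0.75, but with a standard error of 0.50 (limma adjusted p = 0.302). Here SKO 1 stood above CTL 1, and the other 3 SKO-labelled libraries were near CTL 4.

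Smcp, Oaz3 and Spem1 are spermatid genes that belong neither to the dense fibres nor to the sheath proper. SMCP is a cysteine-rich protein of the capsule around midpiece mitochondria, OAZ3 a spermatid antizyme that inhibits ornithine decarboxylase, and SPEM1 a protein needed to shed cytoplasm from the head and neck. Smcp (chromosome 3, 92583867 to 92588997) had 47953, 69111, 9290 and 5720 in the CTL libraries against 54715, 19475, 14341 and 12082 in the SKO-labelled libraries. SKO 1 exceeded CTL 1, and all 4 SKO-labelled values lay inside the control range, which spanned 12.1-fold. Its log2 fold change was 0.02 with a standard error of 0.80 (95% interval -1.77 to 1.80; limma adjusted p = 0.991).

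Oaz3 (chromosome 3, 94432414 to 94443915) had 27950, 39114, 6464 and 4047 in the CTL libraries against 31664, 10509, 7865 and 8548 in the SKO-labelled libraries. Of its exon bases 55.8% overlap Mrpl9 or Tdrkh on the opposite strand, and the kit, NEBNext Ultra RNA, does not mark strand, so reads in that stretch cannot be told apart. Tdrkh (4593 to 8334) and Mrpl9 (2294 to 3693) did not follow its order of libraries, both being lower in CTL 1 and CTL 2 than in CTL 3 and CTL 4. Spem1 (chromosome 11, 69820876 to 69822180) had 13854, 21090, 3799 and 1346 in the CTL libraries against 17424, 4433, 3858 and 3509 in the SKO-labelled libraries. It had the widest control range of the 10 genes, 15.7-fold, and SKO 1 lay far above the other SKO-labelled libraries. The log2 fold changes of Oaz3 and Spem1 were -0.09 and -0.13, with standard errors of 0.73 and 0.84 (limma adjusted p of 0.946 and 0.931).

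The genes differed from one another mainly in how far the libraries of one group lay apart. The standard deviation of log2 values within CTL was 1.81 for Spem1, 1.76 for Smcp, 1.70 for Odf1 and 1.59 for Oaz3, then 1.14 for Ropn1 and 0.97 for Cabs1. It was 0.66 for Fscb, 0.65 for Ropn1l, 0.50 for Odf4 and 0.46 for Odf2. Over the 10 genes its median was 1.05 in CTL and 0.68 in SKO-labelled libraries, beside 0.32 and 0.27 over all genes tested. CTL had the larger spread for 10 of 10 genes, as it had for 63.4% of all genes. The 4 genes with the widest spread, Spem1, Smcp, Odf1 and Oaz3, were also the 4 with log2 fold changes nearest to 0.

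**Figure D2:**
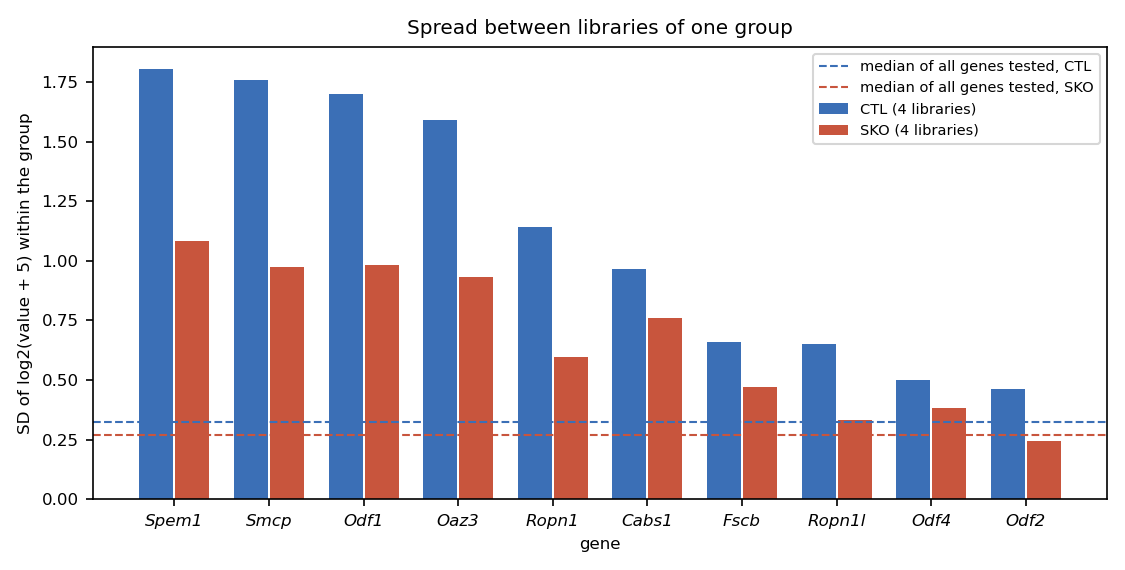
Standard deviation of log2(value + 5) within the 4 CTL and within the 4 SKO-labelled libraries for each gene, with dashed lines at the medians over all genes tested (0.32 and 0.27). Bars run from 1.81 for Spem1 to 0.46 for Odf2 in CTL, and the CTL bar is the taller for all 10 genes.

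The order of libraries was shared. By the root mean square difference of log2 values over the 8 libraries, each centred on its own mean, the nearest of the other genes was Smcp for Odf1 (0.145), for Oaz3 (0.16) and for Spem1 (0.248). Odf2 and Fscb were nearest to each other (0.219), as were Odf4 and Ropn1l (0.202). Ropn1 followed the mean of the 10 most closely (0.0859). A split between library patterns is visible in CTL 3. There Fscb, Cabs1 and Odf2 stood 0.49, 0.53 and 0.40 above their own means, while Smcp, Odf1 and Oaz3 stood at -1.15, -0.99 and -0.96. Outside the 10, the genes nearest to their mean profile over the 8 libraries were Fundc2b (0.0799), Ccdc91 (0.0888), Chn2 (0.0935), Tex45 (0.0946) and Atp6v1fnb (0.0948).

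**Figure D3:**
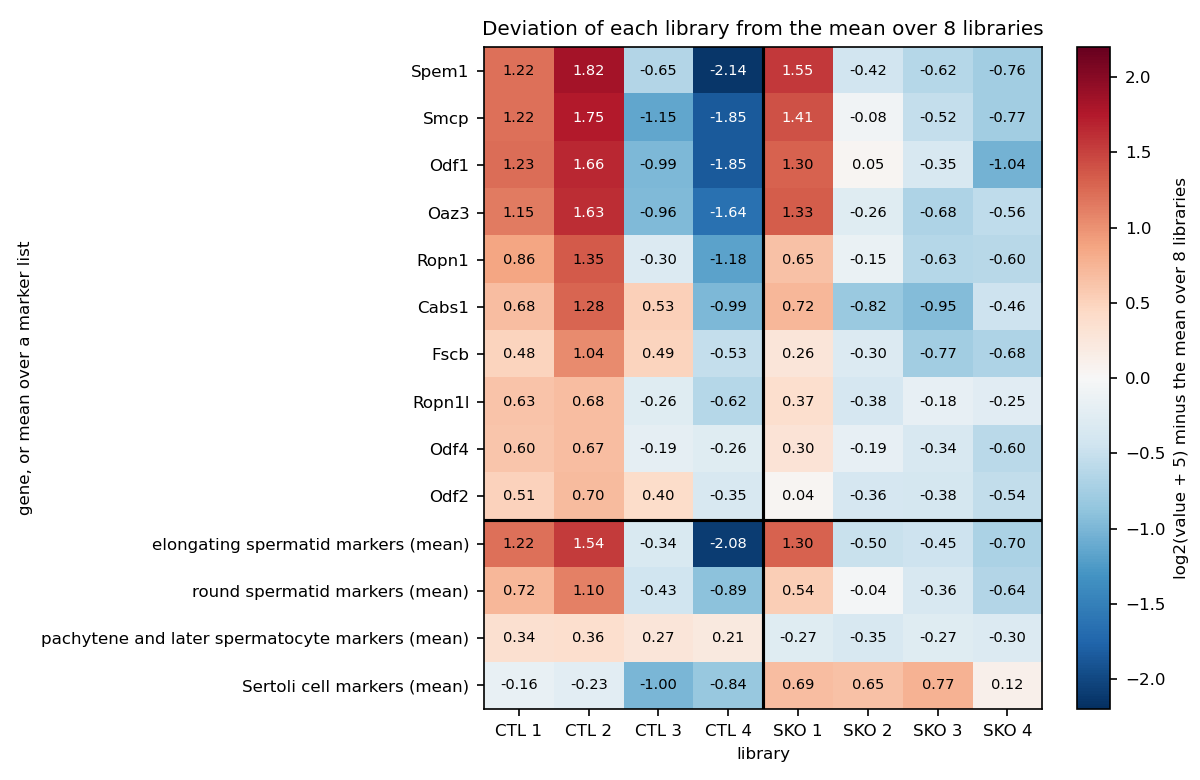
Deviation of log2(value + 5) in each library from the mean over 8 libraries, for the 10 genes ordered by their spread in CTL and, below the line, for the mean of 4 marker lists. CTL 1, CTL 2 and SKO 1 are positive in all 10 gene rows, while the Sertoli row is negative in all 4 CTL libraries and positive in all 4 SKO-labelled libraries.

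In marker lists of spermatid stages CTL 1, CTL 2 and SKO 1 were again the highest libraries and CTL 4 the lowest. The mean deviation of elongating spermatid markers was 1.22, 1.54, -0.34 and -2.08 in the CTL libraries against 1.30, -0.50, -0.45 and -0.70 in the SKO-labelled libraries. That of the 10 genes was 0.86, 1.26, -0.31 and -1.14 in the CTL libraries against 0.79, -0.29, -0.54 and -0.63 in the SKO-labelled libraries. Prm1, the protamine gene that packs the spermatid nucleus, lay between 6324 in CTL 4 and 87906 in CTL 2. Of 10 elongating spermatid markers tested and 14 round spermatid markers, 0 were called in either direction (median log2 fold changes -0.17 and -0.18 with TMM factors, and 0.12 and 0.11 with library totals). With the 18S set as a covariate, 3 of the 14 round spermatid markers were called lower (median -0.52) and 0 of the 10 elongating spermatid markers (median -0.68). The acrosomal gene Acrv1 had means of 8503 ± 6438 and 6680 ± 2983 (SD, n = 4 for either group), at a limma adjusted p of 0.924. Pachytene and later spermatocyte markers did not share this order. Their mean deviation was 0.21 to 0.36 in CTL and -0.35 to -0.27 in SKO-labelled libraries, and 5 of 8 fell, with Adam2 at a log2 fold change of -0.81 (limma adjusted p = 0.0122). With library totals 2 of the 8 fell (median -0.33 against -0.62), and with the 18S set as a covariate 7. Over all genes tested 19.9% were called in either direction and 7.93% lower. With the covariate 12.9% were called lower, and with library totals 456 of 17066 genes.

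Sertoli markers differed between the groups, and within the groups they shared part of the order of the 10 genes. Their mean deviation was -0.16, -0.229, -0.997 and -0.836 in the CTL libraries against 0.686, 0.652, 0.77 and 0.115 in the SKO-labelled libraries, higher in CTL 1 and CTL 2 than in CTL 3 and CTL 4 and lowest of its group in SKO 4, as for the 10 genes. Of 20 markers 15 rose and 0 fell (median log2 fold change 1.09), with Amh at 1.63 and the transcription factor gene Sox9 at 1.16. Their summed value was 110583 to 242440 in CTL and 237191 to 475964 in SKO-labelled libraries. Of 10 markers of spermatogonia and early meiosis 5 rose, led by Stra8 (log2 fold change 1.05). Of 7 peritubular myoid markers 4 rose, led by Myl9 (0.94), of 10 Leydig markers 2, led by Hsd3b1 (1.04), and of 10 macrophage markers 1, C1qc (0.73), with 0 fallen in each of these lists. Over all genes tested 11.9% were called higher, and the Leydig and macrophage counts are near that share. The counts in these lists move with the scaling to unlike degrees. Sertoli markers called higher numbered 14 with median-ratio factors and 17 with library totals. Those of spermatogonia and early meiosis numbered 5 and 7. Of all 17066 genes 1601 and 4885 were called higher under these scalings. Median-ratio factors left 2 myoid, 2 Leydig and 0 macrophage markers called higher, and library totals gave 6, 3 and 4. The median of the Leydig markers was 0.06 with TMM factors, -0.01 with median-ratio factors and -0.06 with the 18S set as a covariate. Of 6 heart muscle genes 2 rose, led by Tnni3 (1.54), at summed values of 2112 to 2786 in CTL and 4281 to 6587 in SKO-labelled libraries. Myl2, Myl3, Nppa and Actc1 of the same list are not among the genes of the table. The 8 epididymis markers are not among the rows analysed here. The part of these shifts in the values of the 10 genes was not tested.

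The values were also taken with regard to the 18S sets. With the set as a covariate in limma, 3 of the 10 genes were called lower, where 29.4% of all genes were called and 12.9% called lower: Odf2 (log2 fold change -0.74, adjusted p = 0.0190), Odf4 (-0.59, adjusted p = 0.0232) and Fscb (-0.90, adjusted p = 0.0459). Within the lower 18S set, which sets CTL 1 and CTL 2 against SKO 1 to 3, 5 of the 10 were called lower and 0 higher, where 32.2% of all genes were called, 13.4% lower and 18.8% higher. These were Odf2 (-0.84), Fscb (-1.03), Odf4 (-0.72), Ropn1 (-1.15) and Ropn1l (-0.72), with limma adjusted p from 0.0177 to 0.0481. The remaining 5 had values from -1.11 for Odf1 to -1.36 for Spem1 and did not pass (limma adjusted p from 0.0746 to 0.122). The median over the 10 was -1.13 there. The 18S sets were drawn from these same data, and of the controls this fit keeps only CTL 1 and CTL 2. Over all 8 libraries CTL 2 was the highest for 10 of the 10 genes and CTL 1 was among the top 3 for 10. In a fit without CTL 1 and CTL 2, Odf1, Ropn1, Ropn1l, Smcp, Oaz3 and Spem1 had positive log2 fold changes. Odf2 (-0.386), Odf4 (-0.0326), Fscb (-0.403) and Cabs1 (-0.195) stayed negative there. CTL 1 and CTL 2 also had the most reads by their less direct estimate, at 258 and 225 M. In SKO 1 to 3 the reads were 65.6, 46.7 and 58.8 M. Other lists moved in the same fit: 6 of 14 round spermatid markers were called lower (median -0.86) and 8 of 8 pachytene and later spermatocyte markers, while 19 of 20 Sertoli markers were called higher. Of the 10 elongating spermatid markers 0 were called, at a median of -1.28. The part of these shifts in the values of the 10 genes was not tested.

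Within the higher 18S set, which sets CTL 3 and CTL 4 against SKO 4 alone, 0 of the 10 were called, where 1.90% of all genes were. The lone SKO-labelled library is assumed there to vary like the control libraries, the spread rests on a single pair of libraries, and the values are given as a description of these 3 libraries. Odf2 (-0.56), Fscb (-0.66), Odf4 (-0.37) and Cabs1 (-0.22) were again lower in value, but Oaz3 (0.74), Smcp (0.73), Spem1 (0.64), Odf1 (0.38), Ropn1l (0.20) and Ropn1 (0.14) were higher, and the median was 0.17. With SKO 4 again alone in its group and set, an interaction term in limma tested whether the group difference itself differed between the sets. It was called for 0 of the 10 genes (lowest adjusted p 0.274, for Ropn1l), where 0.00586% of all genes were called, and 1 of the 10 stood at an unadjusted p below 0.05. The sizes of the interaction were 2.002 for Oaz3, 1.99 for Spem1 and 1.94 for Smcp, with standard errors of 0.88, 1.11 and 0.85, and 0.28 for Odf2, with a standard error of 0.38.

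**Figure D4:**
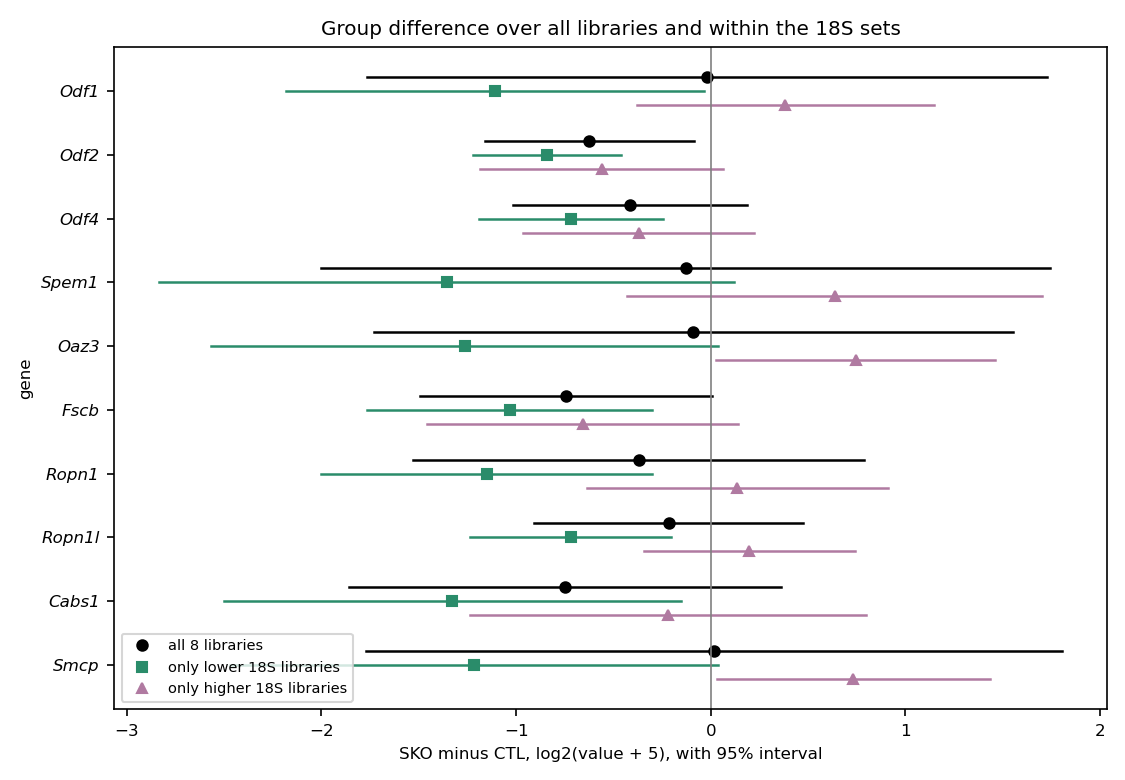
Difference of SKO-labelled and CTL libraries in log2(value + 5) with its 95% interval for each gene, over all 8 libraries (black), within the 5 lower 18S libraries (green squares) and within the 3 higher 18S libraries (purple triangles, with SKO 4 alone on 1 side). The purple intervals rest on the spread between CTL 3 and CTL 4 and are not read as a test. Odf2, Odf4, Fscb and Cabs1 lie left of 0 in each of the 3, while Oaz3, Smcp, Spem1 and Odf1 lie near 0 over all libraries, left within the lower set and right within the higher set.

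Single libraries and the scaling moved these values, and for some of the genes the sign. Without CTL 4, Odf2 (-0.88, limma adjusted p = 0.0207) and Fscb (-1.08, adjusted p = 0.0272) were called lower, where 19.6% of all genes were called and 8.52% called lower. Without SKO 3 no gene in the table was called (0 genes, smallest limma adjusted p 0.0569, 4791 genes at an unadjusted p below 0.05). Odf1, Smcp, Oaz3 and Spem1 took either sign as single libraries were left out, with log2 fold changes between -0.90 and 0.56. Odf2, Odf4, Fscb, Ropn1, Ropn1l and Cabs1 stayed below 0 each time, with Odf2 between -0.88 and -0.54. With library totals in place of TMM factors the median over all genes moved from 0.04 to 0.33. The median over the 10 genes was then 0.00 and 5 of the 10 lay below 0.

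Of 15 other genes of the fibrous sheath 2 fell and 0 rose, with a median log2 fold change of -0.43. Over all genes tested 7.93% were called lower. Tsga10, which encodes a protein of the sheath, went from 33066 ± 3940 to 20185 ± 495 (SD, n = 4 for either group), at a limma adjusted p of 0.0134. Its SKO-labelled libraries lay between 19689 and 20868 and its control libraries between 28176 and 37786, without overlap. Unlike the 10 genes, it was lowest in CTL 1 and highest in CTL 4 among the controls. The ropporin partner gene Rhpn1 fell by 0.63 on the log2 scale. The anchoring protein genes did not pass: Akap4, the most abundant sheath protein, had means of 81271 ± 39402 and 46457 ± 21567 and Akap3 of 76666 ± 25676 and 47758 ± 12837 (SD, n = 4 for either group), at a limma adjusted p of 0.222 and 0.136. Cabyr, which binds calcium in the sheath, and Fsip2 had log2 fold changes of -0.29 and -1.09 (limma adjusted p of 0.618 and 0.120). Fsip2 ran against the order of the 10 genes, with 132429 and 154597 in CTL 3 and CTL 4 and 41679 and 44529 in CTL 1 and CTL 2. Gapdhs, the glycolytic enzyme tied to the sheath, ranged from 4499 in CTL 4 to 50286 in CTL 2 (limma adjusted p = 0.896). With the 18S set as a covariate 5 of the 15 fell, where 12.9% of all genes were called lower. With library totals 1 fell, where 456 of 17066 genes were called lower.

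Of 23 other genes of the outer dense fibres and the midpiece tested, 3 fell and 0 rose (median log2 fold change -0.30). Over all genes tested 7.93% were called lower. Gk2 and Gykl1 encode glycerol kinase-like proteins needed for the mitochondrial sheath. Gk2 went from 79865 ± 7812 to 45907 ± 1939 (SD, n = 4 for either group), at a limma adjusted p of 0.0122, with 43914 to 48527 in SKO-labelled and 71340 to 90240 in control libraries. Gykl1 fell by 0.57 and Ccdc42, needed for the spermatid manchette and tail, by 0.50 on the log2 scale. Gpx4, the selenoprotein that hardens the midpiece capsule, had means of 65670 ± 28008 and 48502 ± 14859 (SD, n = 4 for either group), at a limma adjusted p of 0.436. With the 18S set as a covariate 4 of the 23 fell, where 12.9% of all genes were called lower. With library totals 1 fell and 1 rose, where 456 of 17066 genes were called lower and 4885 higher.

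The partners of single members were mixed, where over all genes tested 7.93% were called lower and 11.9% higher. Of 4 partner and neighbour genes of SPEM1, 2 fell: Spem3 by 0.96 and Ranbp17 by 0.87 on the log2 scale, while Ubqln1, whose product binds SPEM1, had -0.37 (limma adjusted p = 0.0736). Of 12 polyamine and antizyme genes 3 rose and 1 fell (median log2 fold change 0.22). Odc1, ornithine decarboxylase, the target of antizymes, went from 46485 ± 4816 to 31830 ± 5593 (SD, n = 4 for either group), at a limma adjusted p of 0.0417. Smox, spermine oxidase, rose by 1.19, and Sat1 and Sms by 0.84 and 0.83 on the log2 scale. The ubiquitous antizyme gene Oaz1 had 0.51 (limma adjusted p = 0.245). Of 12 genes of centriole appendages, where cenexin sits, 2 rose and 4 fell, with Cep128 at -1.07 and Ccdc68 at 1.71, the latter from 46.8 ± 13.6 to 162 ± 28.1 (SD, n = 4 each). With library totals 4 of the polyamine genes rose and 0 fell, and 2 of the appendage genes rose and 2 fell. Of all 17066 genes 4885 were then called higher and 456 lower.

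Among 12 regulators of spermatid transcription 5 fell and 1 rose (median log2 fold change -0.54), beside 7.93% of all genes called lower and 11.9% higher. Rfx2, a factor that drives genes of the flagellum, went from 62627 ± 7568 to 32128 ± 5228 (SD, n = 4 for either group), at a limma adjusted p of 0.0122, and its groups did not overlap. Taf7l rose by 0.66. Crem, whose product activates many postmeiotic genes through cyclic AMP response elements, had means of 15341 ± 2706 and 11409 ± 1865 (SD, n = 4 for either group), at a limma adjusted p of 0.102. With library totals 1 of the 12 fell and 1 rose, where 456 of all 17066 genes were called lower and 4885 higher. With median-ratio factors 5 fell and 1 rose. With the 18S set as a covariate 8 fell and 1 rose, where 12.9% of all genes were called lower.

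Promoters are shown because Spem1 and Smcp varied together over the libraries while Ropn1l varied less. RefSeq's promoter table (GRCm38.p6) held 8 of the 10 genes, not Odf1 or Oaz3. The 250 bases before each start were searched on both strands for the cyclic AMP response element TGACGTCA, its core TGACG, which the full element contains, the RFX half-site GTTGCC, and TATAAA. These starts are those of RefSeq and differ from the gene ends of GENCODE given above. For Ropn1l the bases up to 31453737, which hold its half-site, lie inside the GENCODE gene. For Spem1 those up to 69822180 do, without its half-site. The 120 bases before the RefSeq start follow, 5′ to 3′ on the gene's strand, with matches to GTTGCC or its reverse complement GGCAAC in capitals.
Spem1 (chr11:69822166-69822285, minus strand): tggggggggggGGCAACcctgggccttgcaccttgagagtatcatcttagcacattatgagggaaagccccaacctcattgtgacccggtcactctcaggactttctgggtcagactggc
Ropn1l (chr15:31453690-31453809, minus strand): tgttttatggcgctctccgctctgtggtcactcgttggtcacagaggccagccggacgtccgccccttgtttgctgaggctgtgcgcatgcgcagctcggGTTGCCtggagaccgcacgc
Smcp (chr3:92589074-92589193, minus strand): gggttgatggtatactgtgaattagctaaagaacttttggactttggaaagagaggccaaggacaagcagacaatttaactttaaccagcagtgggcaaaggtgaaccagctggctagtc
The half-site was found in 2 of the 8 genes, Spem1 and Ropn1l, and in 10.4% of all 32851 promoters. The core TGACG was in 1 of the 8, Odf2, and in 17.8% of all. TATAAA was in Cabs1 alone (12.4% of all), and TGACGTCA in 0 of the 8 (1.55% of all). These are matches of letters in a window, not binding sites.

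Levels of different genes are compared per kilobase of the longest coding transcript in GENCODE M21. Ropn1l was the most abundant by its median over the 8 libraries (57449 per kilobase), followed by Odf2 (38787), Smcp (19638), Odf1 (15423), Oaz3 (10191), Ropn1 (10142), Odf4 (9575), Cabs1 (6643), Spem1 (3982) and Fscb (3960). Each gene's range over the libraries overlapped that of the next. Of the Oaz3 transcript used here 36.4% overlaps Mrpl9 or Tdrkh on the opposite strand. Reads there cannot be told apart, so the level and rank of Oaz3 are less certain. Within libraries, Smcp was above Odf1 in 8 of 8 and Odf4 above Cabs1 in 8 of 8, whereas Cabs1 was above Spem1 in 3 of 8. The order of the 10 genes was therefore not fixed: it depended on the library.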

How the data were processed

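Libraries were made from total RNA of testis with the NEBNext Ultra RNA kit, per the labels' protocols. Reads were counted with featureCounts 1.5.0-p3 after HISAT2 2.0.5, fastp and CASAVA, all named in the submitters' processing notes. The deposited values are a score: whole numbers that, by the gaps between low values, are read counts times 1 factor for each library. CTL 1 and CTL 2 leave no gaps, and their factors are less direct estimates from how often each low value occurs. The sources used here do not give the authors' scaling. The test covered 17066 of 17121 genes, those reaching 25 in 4 or more libraries. TMM scaling used trims of 30% and 5%, and scaled values were fitted as log2(value + 5) with limma 3.58.1 in R 4.3.3, variance trend, no covariate, two-sided, Benjamini-Hochberg over all genes, threshold 0.05. Fold changes are on that scale. No 2 libraries were duplicates (lowest chi-square per gene 36.4). Exons are from GENCODE M21 (GRCm38).

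The 10 genes and the 16 marker and pathway lists were chosen with earlier results of these data known. Named were the 10 genes, N6amt1, 13 fixed partners, tissue markers, the called gene of each list with the largest rise and with the largest fall, and the nearest profiles. Further members of short counts (Rhpn1, Gykl1, Ccdc42, Ranbp17, Sat1, Sms) and the overlapping genes Mrpl9 and Tdrkh were named after their values were seen. Alternatives were other scalings, pseudocounts, filters, library sets, blocks and single libraries left out.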

Additional observations from a re-analysis of the deposited data

Results flagged for a closer look

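SKO 1 stood far from the other SKO-labelled libraries for 2 genes. Its gap to the nearest of the others, divided by the range of the group, was 0.934 for Spem1 (17424 against 3509 to 4433) and 0.889 for Oaz3 (31664 against 7865 to 10509), above Dixon's critical value for 4 samples at the 95% level. Smcp in SKO 1 lay just under that value, at 0.827. Of the 20 groups examined 2 were marked, where chance marks about 1 in 20 if values are normally distributed, and the genes share their libraries. The gaps were taken on normalised values without logarithm, while the limma tests used log2 values. The marks depend on that scale and were not examined on log2 values. Without SKO 1 the log2 fold changes of Spem1 and Oaz3 were -0.67 and -0.55, with limma adjusted p of 0.588 and 0.620.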

How the results depend on the processing

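The count of the 10 genes called lower was 0 with all 8 libraries, 1 with the replicate block (Odf2, limma adjusted p = 0.0467), 3 with the 18S set as covariate, 5 within the lower 18S set and 0 to 2 as single libraries were left out. No gene of the 10 was called higher under any of the 20 alternatives run. The labels do not say whether replicate numbers pair the libraries, and the values do not settle it. Deviations of same-numbered libraries had correlations across genes of 0.673, 0.0119, 0.082 and 0.231. Those of the other pairs ran from -0.717 to 0.706, and not every library was closest to its own number. With the replicate block 3864 genes were called, and the standard error of Odf1 was 0.36 in place of 0.78. Genes called over the whole table numbered 3393, against 5341 with library totals, 5480 in the lower 18S set alone, 312 in the higher set alone, and 0 to 3982 as single libraries were left out. Risen genes made up 60.1% of calls, 49.1% with median-ratio factors and 91.5% with library totals.

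Odf2, Odf4, Fscb and Cabs1 stayed below 0 under each alternative run. Changes of sign of the other genes follow, and for none of them was the cause tested. With library totals the log2 fold changes were 0.27 for Odf1, 0.0742 for Ropn1l, 0.20 for Oaz3 and 0.16 for Spem1, and Odf1 had 0.025 with upper quartile factors. Smcp had -0.0498 with median-ratio factors, -0.52 with the 18S covariate and -1.21 within the lower 18S set. Within the higher 18S set the values were 0.38 for Odf1, 0.14 for Ropn1, 0.20 for Ropn1l, 0.74 for Oaz3 and 0.64 for Spem1. Without CTL 1 and CTL 2 they were 1.36 for Odf1, 0.50 for Ropn1, 0.28 for Ropn1l, 1.21 for Oaz3 and 1.28 for Spem1. As single libraries were left out, Odf1 ran from -0.67 to 0.48, Smcp from -0.63 to 0.56, Oaz3 from -0.68 to 0.39 and Spem1 from -0.90 to 0.41. The interaction term was added after seeing the data.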

Other observations

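Ratios within a library need no scaling between libraries, and these were chosen after the values were seen. Odf1 stood at 18.1%, 21.4%, 4.22% and 3.89% of Odf2 in CTL 1 to 4 and at 26.5%, 14.7%, 11.3% and 7.79% in SKO 1 to 4. SKO 1 thus had the highest share of all 8 libraries, and all 4 SKO-labelled libraries stood above CTL 3 and CTL 4. Spem1 stood at 75.0%, 77.2%, 20.4% and 14.7% of Fscb in CTL 1 to 4 and at 110%, 41.3%, 49.6% and 42.6% in SKO 1 to 4, with the same features. Smcp stood at 13.8% to 67.4% of Ropn1l in CTL and at 22.5% to 66.2% in SKO-labelled libraries, whose ranges overlap. Ropn1 kept a narrower share of its relative Ropn1l, 11.0% to 25.8% in CTL and 11.9% to 19.6% in SKO-labelled libraries.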
